A study of Canis lupus familiaris with 12 samples.

Results

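PTPRM and PTPRZ1 encode receptor-type tyrosine phosphatases, membrane proteins whose cytoplasmic part removes phosphate from tyrosines of other proteins. The arrays carried 1 probe for each, 2 of 13056 probes, chosen by the gene symbol of the platform annotation. They are 2 of 4325 genes of 1 symbol on the arrays. They were picked with their values in these data known, PTPRM for high and PTPRZ1 for low ratios, so their levels are given as a description without a test. The other 14 symbols beginning PTPR, read by 21 probes, served as background.

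MDCK, an epithelial cell line from dog kidney, was transfected with Snail, Slug or E47, transcription factors known as repressors of E-cadherin. RNA of each transfectant was hybridised on 2-colour arrays of cDNA clones against RNA of MDCK-CMV control cells. Snail, Slug and E47 each have a sample 1 and a sample 2. Either sample had an array titled Cy5 and another titled Cy3, the dye of the transfectant, so there were 4 arrays for each of the 3 transfectants, 12 altogether. All groups share the MDCK background, and the labels give neither the constructs beyond their names nor whether a transfectant is a single clone or a pool. Whether samples 1 and 2 were grown as separate cultures is not stated, and the p-values rest on the spread between such samples, pooled over the transfectants, which may be technical. No array compared control with control.

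PTPRM protein binds other PTPRM molecules on neighbouring cells, sits at cell contacts and associates with cadherins and catenins, the proteins of adherens junctions. PTPRZ1 carries a carbonic anhydrase-like domain outside the cell and occurs as a chondroitin sulfate proteoglycan. It is best known from glial cells and binds the growth factors pleiotrophin and midkine, contactins and tenascins; beta-catenin and the Src family kinase FYN are among its known substrates.

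A value is the log2 ratio of the channels of an array. Which channel is the numerator is not stated in the labels, and positive and negative values were not arranged by dye. For a ratio of transfectant over control on each array, 5 of 12 arrays were multiplied by -1, namely the pairs of Snail 2 and Slug 1 and the Cy5 array of E47 2. In E47 this turned 1 array and left 3, so an offset of the same sign in all deposited values would not cancel there. A dye effect that follows the titles would cancel, since each sample has an array titled Cy5 and another titled Cy3. Arrays of a transfectant that this turning treats alike correlated as deposited with r of 0.26 to 0.68 over probes (7 pairs), and those treated oppositely with r of -0.74 to -0.37 (11 pairs), with PTPR and CDH1 probes left out. The side called higher is assumed: it places CDH1, the gene of E-cadherin, below the control, with a mean log2 ratio over its clones of -2.07 in Snail, -2.46 in Slug and -2.07 in E47. Its 6 spots disagreed: spots 5 and 6 lay at or below -2.31 on every array, spots 3 and 4 between -1.37 and 0.91, and spots 1 and 2 reached 0.48 in E47 and 0.20 in Snail, respectively, but were at or below -3.06 in Slug. If the sign of a transfectant were turned, PTPRM would be lower and PTPRZ1 higher there by the same amounts. That the members lay on opposite sides of 0 does not depend on any sign. The probes are named by human genes while the RNA is from dog, and what each clone detects in dog RNA was not tested. The data are ratios, so a higher ratio is more of the transcript relative to the control and says nothing of the level itself.

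PTPRM lay above the control in Snail and Slug and close to it in E47. In Snail, its log2 ratio was 1.32 and 1.00 on the arrays of sample 1 titled Cy5 and Cy3, and 2.84 and 2.68 on those of sample 2. Every array of sample 2 was above every array of sample 1, and arrays of the same sample differed far less than the samples. The mean was 1.96 ± 1.13 (SD, n = 2 samples), a 3.89-fold higher ratio, and PTPRM was the 7th highest of 3768 genes.

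In Slug the samples were closer. PTPRM had 1.44 and 1.34 on the arrays of Slug sample 1 and 2.12 and 1.76 on those of sample 2. The mean of 1.66 ± 0.39 (SD, n = 2) corresponds to a 3.17-fold higher ratio. In E47, PTPRM had 0.16 and 0.08 in sample 1 and 0.58 and 0.29 in sample 2. These 4 values are all above 0 but small, and their mean of 0.28 ± 0.22 (SD, n = 2) is 1.21-fold. By the means PTPRM was ordered Snail, Slug, E47. The Snail and Slug samples overlapped (in 59.0% of genes they did not), while the E47 samples lay below those of either other transfectant, on every array; sample values did not overlap in 52.7% of genes for Snail and E47 and in 49.3% for Slug and E47.

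PTPRZ1 lay below the control in all 3 transfectants, furthest in Slug. In Snail, its log2 ratio was -1.02 and -0.79 on the arrays of sample 1 titled Cy5 and Cy3, and -3.04 and -3.75 on those of sample 2. The samples did not overlap here either, and sample 2 was the further from the control, as for PTPRM. The mean was -2.15 ± 1.76 (SD, n = 2), a 4.44-fold lower ratio, with an SD nearly as large as the mean.

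In Slug, PTPRZ1 had -1.60 and -3.83 on the arrays of sample 1 and -3.40 and -3.11 on those of sample 2. The arrays of Slug sample 1 stood further apart than the means of the samples, which were -2.72 and -3.25. The mean of -2.98 ± 0.38 (SD, n = 2) is a 7.91-fold lower ratio, and 2 of 4053 genes had a lower ratio. In E47, PTPRZ1 had -0.41 and -1.08 in sample 1 and -2.12 and -1.92 in sample 2, with a mean of -1.38 ± 0.90 (SD, n = 2), a 2.60-fold lower ratio. By the means the distance below the control was ordered Slug, Snail, E47. The Snail samples overlapped those of both other transfectants. The Slug and E47 samples did not overlap, although single arrays of Slug sample 1 and E47 sample 2 did. In 49.3% of genes the Slug and E47 samples did not overlap either.

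**Figure D1:**
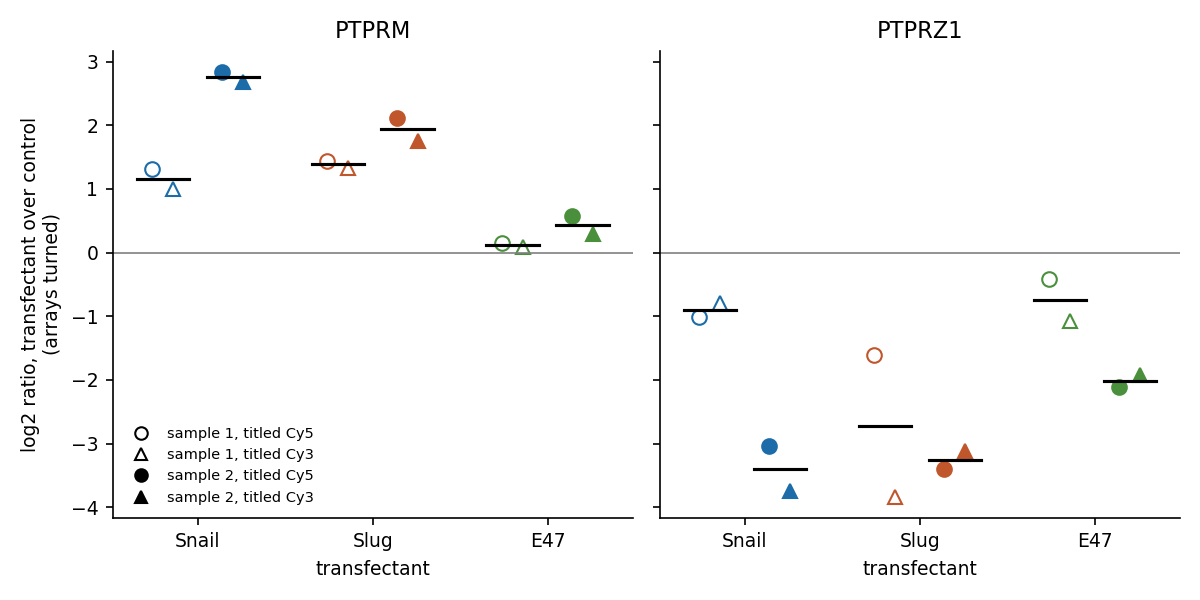
Log2 ratio of PTPRM (left) and PTPRZ1 (right) on each array, by transfectant; open symbols are sample 1, filled symbols sample 2, circles arrays titled Cy5, triangles arrays titled Cy3, and black lines the mean of a sample. PTPRM is above 0 and PTPRZ1 below 0 on all 12 arrays, and sample 2 is the further from 0 in each transfectant.

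On each of the 12 arrays PTPRZ1 lay on the side of 0 opposite to PTPRM, whatever sign the arrays are given. Of 3537 genes with a value on all 12 arrays, 108 lay opposite to PTPRM throughout (3.05% of genes were lower on all 12 turned arrays, and 2.32% higher). All 4 arrays lay above 0 in 12.1% of genes in Snail, 22.3% in Slug and 18.0% in E47, the side of PTPRM, and below 0 in 24.1%, 19.2% and 14.5%, the side of PTPRZ1. The sides of the members were part of what chose them, so nothing is read from this. The mean over the arrays titled Cy5 differed from that over the arrays titled Cy3 by 0.18 to 0.24 for PTPRM in the 3 transfectants. For PTPRZ1 it differed by 0.24 in Snail and in E47 and by 0.97 in Slug, where the Cy3 arrays averaged -3.47 and the Cy5 arrays -2.50.

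The numbered samples stood further apart for these genes in Snail than for most genes. PTPRZ1 differed by 2.49 between Snail samples 1 and 2 and PTPRM by 1.60, against a median absolute difference of 0.22 over 3768 genes. Only 2 genes, PTPRZ1 included, were as far apart as PTPRZ1, and 6, PTPRM included, as far apart as PTPRM. In E47 the difference was 1.27 for PTPRZ1, which 0.504% of 3966 genes reached, and 0.32 for PTPRM, which 25.8% reached. In Slug it was 0.54 and 0.55, which 13.9% and 13.0% of 4053 genes reached. The spread of all genes moved with the sample to a smaller degree: the SD over genes was 0.39 in Snail sample 1 and 0.48 in sample 2, 0.36 and 0.46 in E47, and 0.58 and 0.50 in Slug. Its part in the gaps of the members was not tested. The members were chosen for high or low ratios, and their gaps were not compared with those of genes with similar ratios.

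**Figure D2:**
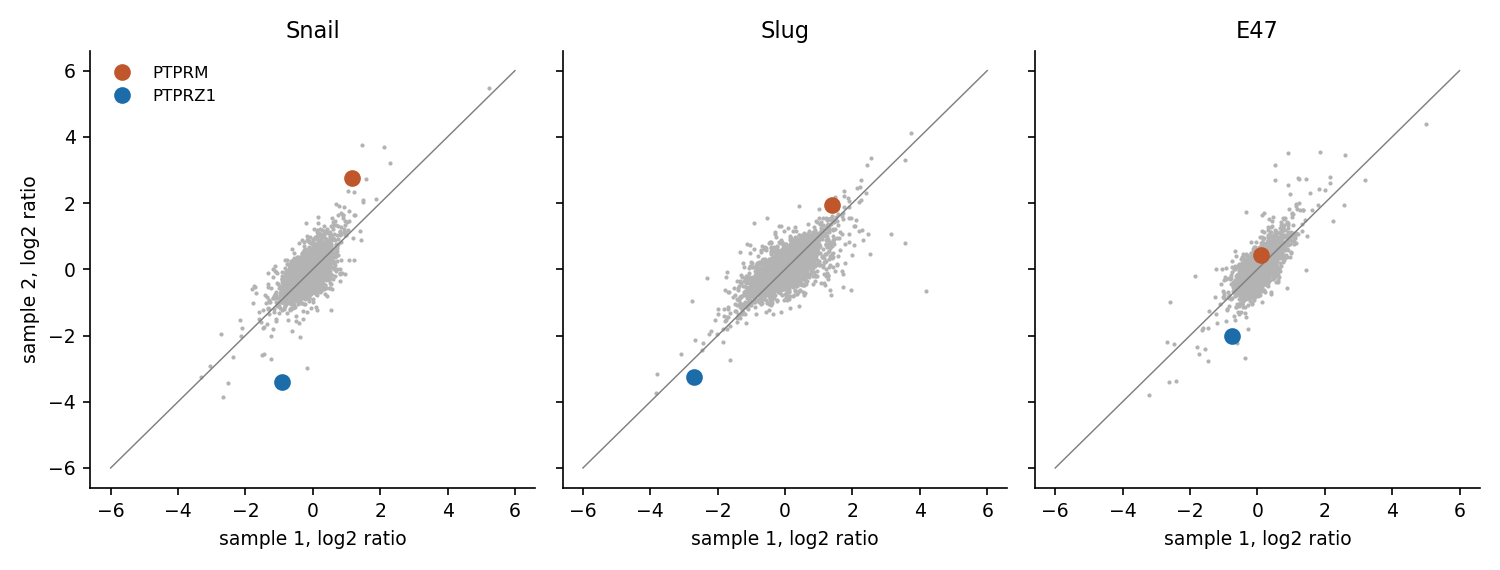
Log2 ratio in sample 2 against sample 1 for all genes (grey) with PTPRM (orange) and PTPRZ1 (blue), 1 panel per transfectant; the line marks equal values. In Snail, PTPRM (1.16 and 2.76) and PTPRZ1 (-0.91 and -3.39) lie at the edge of the cloud, away from the line.

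Among the other receptor phosphatase symbols a single call was made, and their ratios lay nearer to the control than those of PTPRZ1 in each transfectant and of PTPRM in Snail and Slug. In E47, PTPRM at 0.28 lay within their range. With limma and Benjamini-Hochberg adjustment over all genes, 0 of 13 tested symbols passed an adjusted p of 0.05 in Snail (3 at an unadjusted p of 0.05), 1 of 13 in Slug and 0 of 13 in E47 (1 at an unadjusted p of 0.05). Over all genes, 7.22% passed in Snail, 21.8% in Slug and 5.3% in E47; those above the control were 2.15%, 12.2% and 3.81%, and those below it 5.07%, 9.62% and 1.49%. The 13 mean log2 ratios ran from -0.57 to 0.34 in Snail, from -0.66 to 0.39 in Slug and from -0.20 to 0.34 in E47. PTPRD, a receptor of the LAR type, lacked values on too many arrays to be tested. Their medians were -0.01, -0.14 and 0.05, beside -0.05, 0.02 and 0.01 over all genes.

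**Figure D3:**
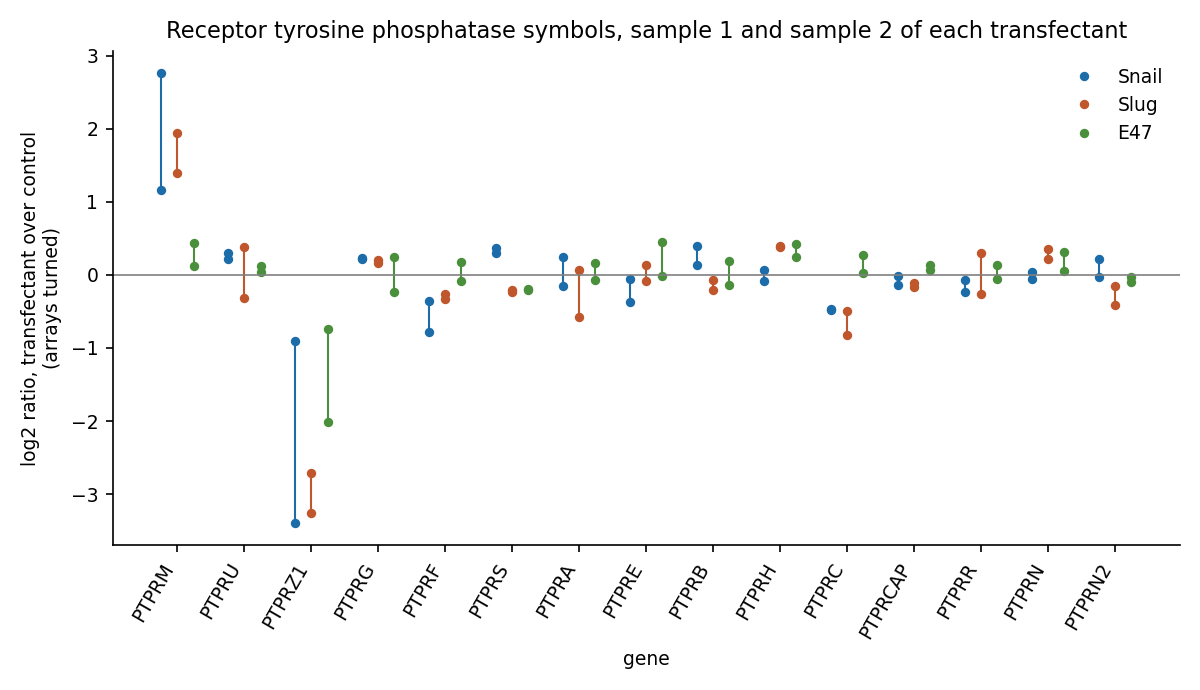
Log2 ratio of each tested PTPR symbol in sample 1 and sample 2 (points joined by a line) of Snail, Slug and E47. The 13 background symbols lie between -0.82 and 0.45, while PTPRM reaches 2.76 and PTPRZ1 -3.39, both in Snail sample 2.

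Among the PTPR symbols on the arrays, PTPRU and PTPRG share a type of extracellular part with PTPRM and PTPRZ1, respectively, and did not pass the test. Receptors without a symbol among these, PTPRK and PTPRT included, could not be tested. PTPRU, which shares the MAM-domain type of extracellular part with PTPRM, had a log2 ratio of 0.26 ± 0.17 (SE, n = 2) in Snail, between 0.21 and 0.34 on its 4 arrays, 0.03 in Slug, where the samples lay at -0.31 and 0.38, and 0.08 in E47 (adjusted p from 0.41 to 0.91). PTPRG, the other receptor with a carbonic anhydrase-like domain, had 0.22 ± 0.14 in Snail, 0.18 in Slug and 0.00 in E47 (adjusted p from 0.398 to 0.996). Both thus had mean ratios near the control in transfectants where PTPRM and PTPRZ1 stood furthest from it.

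PTPRF, the LAR receptor, which like PTPRM is known to associate with cadherin and catenin complexes, had values on the side of CDH1 in Snail. Its log2 ratio was -0.41 and -0.30 on the arrays of Snail sample 1 and -0.88 and -0.69 on those of sample 2, with a mean of -0.57 ± 0.14 (SE, n = 2; adjusted p = 0.0565). It was -0.29 ± 0.14 in Slug (adjusted p = 0.187) and 0.05 ± 0.14 in E47 (adjusted p = 0.905). It therefore missed the threshold in all 3; in Snail the call was made with the arrays scaled to 1 spread and with a replicate block, and its adjusted p over 14 alternatives ran from 0.0406 to 0.999. PTPRS, of the same LAR type, had 0.34 ± 0.11 in Snail (adjusted p = 0.116), -0.22 in Slug and -0.20 in E47.

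PTPRC, the CD45 phosphatase that marks leukocytes, was the symbol that passed. In Slug it fell to a log2 ratio of -0.66 ± 0.13 (SE, n = 2; adjusted p = 0.0129), with arrays at -0.48 and -1.17 in sample 1 and -0.59 and -0.40 in sample 2. In Snail it was at -0.47 ± 0.13 (adjusted p = 0.0767) and in E47 at 0.15 ± 0.13 (adjusted p = 0.613). The call in Slug was lost without Slug sample 1 (-0.50, adjusted p = 0.141). Its 2 spots disagreed on single arrays, as at 0.15 and -1.10 on the Cy5 array of Slug sample 1. The other leukocyte markers with a probe gave 1 further fall in Slug, CD74 (-0.66, adjusted p = 0.0244), lost without either Slug sample (-0.61 and -0.70), with arrays scaled to 1 spread and on either dye alone, and none of 5 tested rose; a ratio does not tell whether PTPRC is expressed in these cells.

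The remaining receptors kept small ratios. PTPRH had 0.39 ± 0.12 in Slug (adjusted p = 0.0560), 0.34 ± 0.12 in E47 (adjusted p = 0.166) and -0.01 in Snail. It was above 0 on all 4 arrays in Slug and in E47, as were 22.3% and 18.0% of genes. PTPRB, the endothelial receptor, had 0.27 in Snail, -0.14 in Slug and 0.02 in E47. PTPRA, PTPRE, PTPRR, PTPRN and PTPRN2, and PTPRCAP, which encodes a protein bound to CD45 and no phosphatase, lay between -0.28 and 0.29 in every transfectant.

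The cytoplasmic tyrosine phosphatases, symbols beginning PTPN, had calls in each transfectant; their share was not tested against other genes. In Slug, 3 of 13 tested rose and 1 fell, where 12.2% of all genes were called higher and 9.62% lower. PTPN1, the phosphatase PTP1B of the endoplasmic reticulum, rose by 1.73 ± 0.16 (SE, n = 2; adjusted p = 8.08e-04), with arrays at 2.01 and 1.77 in sample 1 and 1.36 and 1.77 in sample 2. PTPN2, its close relative and a regulator of cytokine signalling, had -1.26 and -1.62 in Slug sample 1 and -1.72 and -1.49 in sample 2, and fell to -1.52 ± 0.19 (adjusted p = 0.0025). These close relatives thus lay on opposite sides of the control in Slug, with no array overlapping. PTPN14, a regulator of Hippo signalling (0.73, adjusted p = 0.0226), and PTPN12, the PTP-PEST phosphatase of focal adhesion proteins (0.65, adjusted p = 0.0294), also rose.

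In E47, 1 of 12 passed, beside 5.3% of all genes: PTPN1 rose by 1.04 ± 0.16 (adjusted p = 0.0131), with arrays from 0.68 to 1.37. In Snail, 2 of 13 fell, beside 5.07% of all genes, PTPN3 (-1.12 ± 0.25, adjusted p = 0.0346) and PTPN12 (-0.70 ± 0.17, adjusted p = 0.0466), and none rose; PTPN1 was at -0.37 ± 0.16 (adjusted p = 0.215). The median over the PTPN genes tested was -0.37 in Snail, -0.04 in Slug and -0.10 in E47. Calls were lost for PTPN1 in E47 without sample 2 (0.76), for PTPN3 without Snail sample 1 (-0.51), for PTPN14 without Slug sample 2 (0.42), and for PTPN12 without either sample of Snail (-0.56 and -0.85) or of Slug (0.86 and 0.44). With a sample left out, the remaining sample is assumed to vary like the other transfectants. The calls of PTPN12 and PTPN14 in Slug were also lost with arrays scaled to 1 spread (adjusted p = 0.0949 and 0.0557) and on the arrays of either dye alone. That of PTPN12 in Snail was lost on either dye alone, with arrays centred on their median (adjusted p = 0.0574) and with 1 array sufficing for a sample (adjusted p = 0.0536), and that of PTPN3 on the Cy3 arrays (adjusted p = 0.0985). Among dual specificity phosphatases, DUSP3 rose in Slug (0.75, adjusted p = 0.0152), where 12.2% of all genes were called higher. The call was lost without Slug sample 1, at 0.61, and on the Cy5 arrays alone. In Slug 5 of 6 did not pass. In Snail and E47, 0 of 4 and 0 of 5 passed, with 0 and 3 at an unadjusted p of 0.05 in limma.

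Of 12 listed partners and substrates of PTPRM, 9 had a probe and were tested. CDH1, which set the sign, was the single one to pass in each transfectant, and it fell. Calls below the control made up 5.07% of all genes for Snail, 9.62% for Slug and 1.49% for E47. Of the 9 tested, 2, 3 and 3 had an unadjusted p under 0.05 in limma. BCCIP was below 0 on all 12 arrays, as were 3.05% of 3537 genes. It had -0.42 ± 0.12 in Snail, -0.40 ± 0.12 in Slug and -0.36 ± 0.12 in E47 (adjusted p = 0.084, 0.0544 and 0.152). CTNNB1, beta-catenin, had log2 ratios of 0.29 ± 0.15 in Snail, 0.20 ± 0.15 in Slug and 0.24 ± 0.15 in E47 (adjusted p from 0.289 to 0.445). CTNND1, the p120 catenin, had 0.00, 0.35 and -0.05, and CDH2, N-cadherin, 0.08, 0.32 and 0.13, none past the threshold. The list had medians of -0.08, -0.07 and -0.05.

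Of 22 ligands, partners and substrates of PTPRZ1, 11 had a probe and were tested. In Snail 1 rose, in Slug 3 and in E47 1, and none fell; over all genes 2.15%, 12.2% and 3.81% were called higher. FYN, a known substrate, rose in Snail by 0.57 ± 0.13 (adjusted p = 0.0360) and in Slug by 0.86 ± 0.13 (adjusted p = 0.0040), and was at 0.46 ± 0.13 in E47 (adjusted p = 0.0854). FYN lay above 0 on all 4 arrays of each transfectant, from 0.28 to 1.40, as did 2.32% of 3537 genes. VEGFA, a growth factor that also binds PTPRZ1, rose in Slug by 1.99 ± 0.13 (adjusted p = 4.25e-04) and in E47 by 1.20 ± 0.13 (adjusted p = 0.0028), and was at -0.28 ± 0.13 in Snail (adjusted p = 0.232). TNR, tenascin-R, rose in Slug by 0.62 ± 0.15 (adjusted p = 0.0253).

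Of the ligands with a probe, TNR and VEGFA passed as stated, while midkine, tenascin-C and contactin-1 passed in no transfectant. MDK, midkine, had log2 ratios of 0.07, -0.03 and 0.02 in Snail, Slug and E47, and TNC, tenascin-C, -0.07, 0.08 and -0.06. CNTN1, contactin-1, had 0.34 ± 0.17 in Snail (adjusted p = 0.256) and -0.34 ± 0.17 in Slug (adjusted p = 0.184). The calls of FYN in Snail and of TNR in Slug were lost without either sample of the transfectant (0.50 and 0.64, and 0.49 and 0.74), that of FYN in Snail also without either E47 sample (0.57, adjusted p = 0.0579), and that of VEGFA in E47 without sample 2 (1.06). The call of FYN in Snail was also lost on the arrays of either dye alone (adjusted p = 0.0502 for Cy5 and 0.432 for Cy3), that of TNR with arrays scaled to 1 spread (adjusted p = 0.0977) and on the Cy3 arrays, and that of VEGFA in E47 on the Cy3 arrays (adjusted p = 0.0652). The list had medians of 0.07, 0.08 and 0.02.

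Among Src family kinases and their regulator CSK, 8 of 11 were tested. FYN rose and YES1 fell in Snail and in Slug, and none of 8 passed in E47, where 2 had an unadjusted p under 0.05 in limma. Over all genes 7.22% passed in Snail, 21.8% in Slug and 5.3% in E47. YES1 was at -0.77 ± 0.16 in Snail (adjusted p = 0.0267), -0.74 ± 0.16 in Slug (adjusted p = 0.0150) and -0.59 ± 0.16 in E47 (adjusted p = 0.0790). Its call was lost without either Snail sample (-0.90 and -0.64) and without Slug sample 1 (-0.46), in both transfectants on the Cy3 arrays alone (adjusted p = 0.342 and 0.126), and in Snail with the median of all spots (adjusted p = 0.0514).

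Epithelial markers lay below the control in the median, at -1.29 in Snail, -1.67 in Slug and -1.01 in E47. Over all genes the medians were -0.05, 0.02 and 0.01. Markers of the other cell types gave no common direction. Of epithelial markers, 3 of 6 tested fell in Snail, 3 of 7 in Slug and 3 of 6 in E47. Both the medians and these counts hold CDH1, which set the sign. Over all genes 5.07%, 9.62% and 1.49% were called lower. CDH1 and DSP, desmoplakin, fell in each, with the keratin KRT7 in Snail and E47 and KRT19 in Slug. KRT19 lacked a value on 1 array in Snail and in E47 and was not tested there. Its other arrays lay at -2.45, -3.10 and -3.05 in Snail and -1.82, -1.77 and -2.19 in E47. EPCAM (-1.59, -1.87 and -1.53), KRT8 (-0.40, 0.23 and -0.16) and KRT18 (-0.18, 0.14 and -0.12) passed in none. Calls were lost for DSP in E47 without either sample (-0.71 and -0.63) and for KRT7 in Snail likewise (-0.98 and -1.02), for DSP in E47 on the arrays of either dye alone, and for KRT7 in Snail and E47 on the Cy3 arrays. Glial and neural markers, listed because PTPRZ1 is a glial gene, had no call among 3 tested in any transfectant, with 0, 2 and 0 at an unadjusted p of 0.05 in limma. Endothelial markers had 2 of 7 higher in Slug, ENG (1.05) and TEK (0.62), beside 12.2% of all genes. Both calls were lost without Slug sample 1 (0.74 and 0.38), with arrays scaled to 1 spread and on the arrays of 1 dye. None of 6 and of 7 passed in Snail and E47, with 1 each at an unadjusted p of 0.05 in limma. Leukocyte markers had 1 of 5 lower in Snail, CD74 (-0.84), beside 5.07% of all genes. The call was lost without Snail sample 2, at -0.56, and on the Cy3 arrays. None of 5 passed in E47, with 1 at an unadjusted p of 0.05 in limma. These ratios do not show which markers are expressed. Their part in the ratios of the members was not tested.

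Likeness of pattern was measured by the cosine of the log2 ratios over the 12 arrays, which no turning of arrays alters, among 3536 other genes with values on all of them. Between PTPRM and PTPRZ1 it was -0.92. The 5 genes most like PTPRM, with cosines of 0.93 to 0.98, were OCRL, a phosphoinositide phosphatase, HDAC9, a histone deacetylase, LINC00474, PPP5C, a serine/threonine phosphatase, and VKORC1, an enzyme of the vitamin K cycle. OCRL had sample values of 0.83 and 1.70 in Snail, 1.04 and 1.36 in Slug and -0.03 and 0.32 in E47. The 5 most opposed, with cosines of -0.95 to -0.92, were ILF2, DSP, VAV3, SCGB2A2 and SRGN, serglycin. DSP had -2.38 and -2.64 in Snail, -1.63 and -1.71 in Slug and -0.63 and -0.71 in E47, so it was nearer to the control in E47, as PTPRM was.

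The 5 genes most like PTPRZ1, with cosines of 0.94 to 0.95, were ACAN, the cartilage proteoglycan aggrecan, SGK1, a kinase, PRSS16, SLC2A3, a glucose transporter, and SRGN. With the 6 sample means in place of the 12 arrays, 0 of these 5 and 1 of the 5 most opposed, WNT5A, were named again. SRGN had sample values of -0.39 and -2.04 in Snail, -2.26 and -1.97 in Slug and -0.11 and -0.72 in E47. The 5 most opposed, with cosines of -0.95 to -0.94, were WNT5A, a Wnt ligand, LIX1L, FN1, fibronectin, PPP1R11 and MSN, moesin. WNT5A had 1.46 and 3.76 in Snail, 2.42 and 3.15 in Slug and 0.90 and 3.53 in E47. Among the other PTPR symbols the cosine with PTPRM ran from -0.90, for PTPRF, to 0.53, for PTPRG, and that with PTPRZ1 from -0.53, for PTPRH, to 0.77, for PTPRF. These cosines describe 12 arrays that share a control and a platform, and carry no test.

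**Figure D4:**
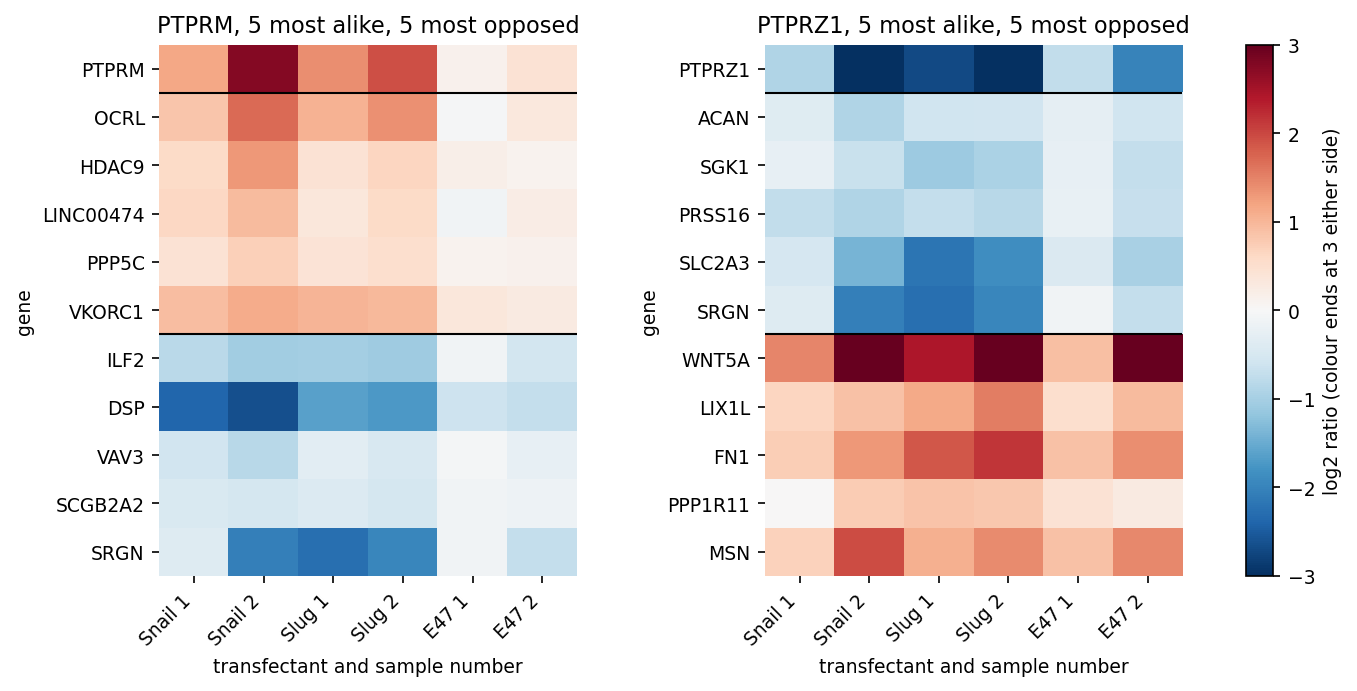
Log2 ratio in each numbered sample (columns) of PTPRM (left) and PTPRZ1 (right), the 5 genes most alike and the 5 most opposed over 12 arrays (rows, set off by lines); red is above and blue below the control, and the colour scale ends at 3 on either side. PTPRM and the genes most alike are palest in E47, and PTPRZ1 in sample 1 of E47 and of Snail (-0.74 and -0.91).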

How the data were processed

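The authors deposited a log2 ratio for 13056 probes on each of 12 arrays. Array medians lay between -0.0634 and 0.0594, so the ratios were centred; scanner, background correction, normalisation and the reason for missing values: not given in the sources used here. Signal over background is therefore unknown, and precision is limited by how few arrays there are. An array had values for 10654 to 12982 probes. Of the probes, 8047 have 1 symbol in the platform annotation, 276 several and 4733 none; those with 1 symbol gave 4325 genes.

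Arrays were turned as stated, a choice that rests on the values. The leading eigenvector of the correlations within each transfectant was computed without PTPR and CDH1 probes. An eigenvector leaves the sign of a whole transfectant open, so that sign was set to match the turning. The relative signs within each transfectant then matched on 12 of 12 arrays, which does not check the side called higher. Averages were taken over spots, then over clones of a gene, then over both arrays of a sample, each being required. limma 3.58.1 in R 4.3.3 fitted the 3 transfectants together (prior degrees of freedom 4.85, prior SD 0.203) and tested each against 0, two-sided, over the genes with both samples; the script was checked on simulated data. Each value is a ratio to control RNA, so this test does not estimate the spread of the control apart from that of the transfectants.

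The members, lists and tests were chosen with earlier results of these data known. The naming rule took the members, any PTPR symbol, CDH1, and the PTPN, DUSP and partner genes that passed. It also took the 5 genes most alike and most opposed to each member. Partners short of a call, markers, EPCAM and the other genes named for their sample gaps were named after their values were seen. Neither a genome build nor sequences were used here, so no coordinates are given. Alternatives changed scaling, centring, spot averaging, missing values, dyes, signs, pairing and samples.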

Additional observations from a re-analysis of the deposited data

Results flagged for a closer look

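Over the 4 arrays of a transfectant, 45 sets of values of PTPR symbols were checked for an array apart from the rest, which chance gives in about 1 of 20 sets, and 2 were found. PTPRN in E47 had 0.64 on the array of sample 1 titled Cy5 and -0.03 to 0.07 on the other 3. PTPRS in Snail had 0.44 on the array of sample 1 titled Cy3 and 0.30 to 0.31 on the other 3; on both arrays of Snail sample 1 it rests on 1 of its 3 spots.

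PTPRS lay above the control on all 4 Snail arrays, with a mean of 0.34, and below it on all 4 arrays of Slug (-0.22) and of E47 (-0.20). The difference was not tested, and its single spots in Snail sample 2 ran from -0.14 to 0.96. Over all genes, 12.1% lay above 0 on all 4 Snail arrays. Below 0 on all 4 arrays were 19.2% in Slug and 14.5% in E47.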

How the results depend on the processing

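Read as Cy5 over Cy3 by the labelled dyes, PTPRM was at 0.042 in Snail, 0.0645 in Slug and -0.20 in E47, PTPRZ1 at -0.23, -0.63 and 1.18, and 0 genes passed limma in each transfectant, PTPRC in Slug included (0 other PTPR symbols). In Snail, Slug and E47 sample 1 this follows from the construction, since the arrays of a sample then have opposite signs and cancel. In E47 sample 2 they do not cancel: PTPRZ1 as deposited was 2.12 on the Cy5 array and -1.92 on the Cy3 array. By this reading PTPRM, PTPRZ1 and CDH1 (0.92) were reversed in E47. In Slug, PTPRZ1 was at -2.51 with arrays scaled to 1 spread, -2.50 on the arrays titled Cy5 and -3.47 on those titled Cy3. Under the remaining alternatives of scaling, centring, spots, missing values and dyes, the members moved by less than the SD between samples. Leaving out 1 of 2 samples moves a mean by less than that SD whatever the values, so those settings are no check.

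Scaled to 1 spread, 436 genes passed in Slug in place of 885. With arrays titled Cy3 alone 56 passed in Snail (272 in the reported fit), 372 in Slug and 42 in E47 (210), and with arrays titled Cy5 alone 576 in Slug; PTPRC in Slug passed with neither dye alone (0 symbols). In Snail, 1 PTPR symbol passed with scaling (PTPRF), 1 on the Cy5 arrays (PTPRC) and 1 with the replicate block (PTPRF). Without 1 numbered sample, counts ran from 34 to 345 in Snail, 325 to 891 in Slug and 26 to 275 in E47, and the other PTPR symbols called from 0 to 0, 0 to 1 and 0 to 0. The lowest were those without Snail sample 2, Slug sample 1 and E47 sample 2. The share of calls above the control in Snail was 29.8%, 43.4% without Snail sample 1 and 5.88% without sample 2. PTPRM ran from 1.16 to 2.76 in Snail, 1.39 to 1.94 in Slug and 0.12 to 0.44 in E47, and PTPRZ1 from -3.39 to -0.91, -3.25 to -2.72 and -2.02 to -0.74.

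The labels tie samples 1 and 2 across transfectants by number alone. Their deviations correlated across genes with r of 0.02 for Snail and Slug, 0.23 for Snail and E47 and -0.07 for Slug and E47, so not every pair was above 0.1, and a tie between Snail and E47 was not tested further. With the replicate block 292 genes passed in Snail, 885 in Slug and 232 in E47. With the 6 sample means in place of 12 arrays, 5 of the 10 genes named for likeness to PTPRM and 1 of 10 for PTPRZ1 were named again.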

Other observations

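Of 3617 genes, 52 had Snail samples at least 1 log2 unit apart and 33 had E47 samples so. Both held for 7 genes, all in the same direction: EPCAM, an epithelial adhesion molecule, PTPRZ1, RAI14, SCD5, SLCO2A1, VLDLR and WNT5A. EPCAM had -0.18 and -3.00 in Snail samples 1 and 2 and -0.36 and -2.69 in E47. WNT5A had 1.46 and 3.76, and 0.90 and 3.53, beside -0.91 and -3.39, and -0.74 and -2.02, for PTPRZ1. In Slug, EPCAM had -2.78 and -0.96, WNT5A 2.42 and 3.15, and PTPRZ1 -2.72 and -3.25. Sample 2 was thus the nearer to the control there for EPCAM, and the further for WNT5A and PTPRZ1. All genes of this paragraph were chosen after their values were seen. Whether Snail and E47 samples of the same number were set against the same control RNA is not stated.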
